A study of Homo sapiens with 6 samples.

Results

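Aminoacyl-tRNA synthetases are the enzymes that join each amino acid to its transfer RNA, and the 36 nuclear genes described here are 20 that encode the cytosolic enzymes and 16 that encode the mitochondrial ones. They were selected by gene symbol, with earlier results of these data known, and all 36 were found among the 29804 symbols of the count table and passed the filter on low counts, as did 14672 genes in all. The study asked how 22Rv1 cells, a line derived from a human prostate carcinoma, adapt to repeated DNA damage. RNA from whole cultures was sequenced in 6 libraries, 2 for each of 3 groups. WT was untreated 22Rv1 taken at week 0, AM was untreated 22Rv1 kept in culture for 6 weeks, and 6WP was 22Rv1 that received phleomycin, a glycopeptide that breaks DNA, at 1 µg/ml on weekdays for 6 weeks. All groups share the 22Rv1 background, with no genetic alteration added. The model has limits: it is 1 cell line, the 6WP cells are those that survived treatment, and WT is labelled as time 0 whereas AM and 6WP are labelled as 6 weeks. The replicates are described as biological, without saying whether each 6WP replicate had its own course of treatment, so p-values measure only the spread between these libraries.

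Protein synthesis in the cytosol and in the mitochondrion draws on separate sets of these enzymes, all encoded in the nucleus. GARS and KARS each make both a cytosolic and a mitochondrial form, and mitochondrial glutaminyl-tRNA is made indirectly by an amidotransferase, so these have no separate mitochondrial gene. In the cytosol, EPRS, IARS, LARS, QARS, MARS, KARS, RARS and DARS are held with 3 scaffold proteins in the multi-tRNA synthetase complex, and the others act outside it. When uncharged tRNA accumulates, the kinase GCN2 phosphorylates eIF2 and translation of the transcription factor ATF4 increases. ATF4 binds C/EBP-ATF response elements, whose core reads TGATGNAA, and many cytosolic synthetase genes are known ATF4 targets.

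The core was searched on both strands of the RefSeq promoter windows (GRCh38.p14), each from 250 bases before to 50 after a transcription start. Windows were present for 30 of the 36 genes, and DARS, LARS, VARS, YARS, AARS2 and VARS2 had none. At least 1 window held the core in 7 of the 16 cytosolic genes with a window and in 1 of the 14 mitochondrial genes. Counted by window, it was present in 7 of 21 cytosolic windows (33.3%), in 1 of 18 mitochondrial windows (5.56%) and in 3.63% of all 34796 windows. The cAMP response element TGACGTCA, a distinct motif searched in the same way, was in none of the synthetase windows and in 1.84% of all windows. Of the 7 matches, 6 lay within 33 bases of the start and the AARS match began 187 bases before it. The following 60-base stretches, 5′ to 3′ on the strand of the gene, are shown because they carry the core, in capitals, in whichever orientation it occurred.
AARS (chr16:70289660-70289719, minus strand): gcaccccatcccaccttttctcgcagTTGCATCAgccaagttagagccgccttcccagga
CARS (chr11:3057392-3057451, minus strand): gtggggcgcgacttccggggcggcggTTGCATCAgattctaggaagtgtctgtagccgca
GARS (chr7:30594819-30594878, plus strand): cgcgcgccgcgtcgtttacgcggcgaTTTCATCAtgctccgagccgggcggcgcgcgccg
IARS (chr9:92293677-92293736, minus strand): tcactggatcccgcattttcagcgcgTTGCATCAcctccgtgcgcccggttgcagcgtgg
MARS (chr12:57488038-57488097, plus strand): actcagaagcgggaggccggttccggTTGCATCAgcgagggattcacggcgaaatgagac
NARS (chr18:57621789-57621848, minus strand): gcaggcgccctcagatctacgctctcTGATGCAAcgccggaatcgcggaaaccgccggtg
TARS (chr5:33440941-33441000, plus strand): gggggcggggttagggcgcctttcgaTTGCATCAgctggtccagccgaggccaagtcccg
YARS2 (chr12:32756061-32756120, minus strand): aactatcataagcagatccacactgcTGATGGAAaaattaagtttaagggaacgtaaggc

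In 6 of the 7 cytosolic stretches the 8 letters were TTGCATCA or its reverse complement TGATGCAA, GARS held TTTCATCA, and the mitochondrial YARS2 held TGATGGAA 197 bases before its start. SARS, whose expression differed most between 6WP and WT, had no core in either of its windows, and the first of them (chr1:109213643-109213942, plus strand) is shown for contrast.
SARS: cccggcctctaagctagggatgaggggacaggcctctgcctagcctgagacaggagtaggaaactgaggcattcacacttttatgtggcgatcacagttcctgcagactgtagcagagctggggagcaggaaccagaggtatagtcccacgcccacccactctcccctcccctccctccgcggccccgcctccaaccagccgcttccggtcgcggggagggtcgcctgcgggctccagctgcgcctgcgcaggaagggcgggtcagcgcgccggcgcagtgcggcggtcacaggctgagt

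The libraries held 21222201 to 35311945 counts, and each synthetase gene was counted between 341 and 28569 times in every library. Levels are given as CPM, counts scaled to a common library size with TMM factors. Replicate libraries correlated across genes with Pearson's r of 0.994 in WT, 0.994 in AM and 0.982 in 6WP, and the median gap between replicates was 0.121, 0.129 and 0.278 on the log2 scale, so the 6WP libraries were the least alike. The luminal prostate markers KLK3, KLK2, KRT8, KRT18 and EPCAM were all detected, at 38.0 to 353 CPM, while the leukocyte marker PTPRC was at 0 and the endothelial markers PECAM1 and VWF did not exceed 0.0918 CPM. Among fibroblast markers, COL1A1 reached 2.45 CPM. In RNA from whole cultures, fewer cells making a transcript and less of it per cell cannot be told apart.

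Per kilobase of the canonical transcript, the cytosolic genes were expressed at a median of 66.0 CPM in WT (range 18.7 to 136) and the mitochondrial genes at 16.3 (range 5.10 to 119). EPRS, which charges both glutamate and proline, had the highest level in WT at 136 ± 8.76 CPM per kilobase (SD, n = 2), followed by NARS, the asparaginyl enzyme, at 132 ± 9.46. The difference between EPRS and NARS was within their spread. IARS2, which charges mitochondrial isoleucine tRNA, came next at 119 ± 4.21, well above TARS2, the following mitochondrial gene, at 35.4 ± 0.517. At the other end stood AARS2 at 5.10 ± 0.0638 and PARS2 at 6.81 ± 0.148. Of the 17 pairs of genes that charge the same amino acid in the 2 compartments, with FARSA and FARSB each set against FARS2 and EPRS against both EARS2 and PARS2, the cytosolic member had the higher level per kilobase in 15 in WT. The exceptions were IARS and CARS, and CARS passed CARS2 in AM and 6WP, where IARS remained the 1 exception.

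6WP against WT asks what differs between cells after 6 weeks of damage and the parental cells. In 6WP, 8 of the 20 cytosolic synthetase genes were increased, none was decreased, and 0 of the 16 mitochondrial genes passed the test in either direction. The 8 were SARS, CARS, WARS, YARS, AARS, GARS, NARS and TARS. All belong to the 12 genes whose enzymes act outside the multi-tRNA synthetase complex, and 0 of the 8 complex-bound genes passed. The test was edgeR's quasi-likelihood test with Benjamini-Hochberg adjustment over all 14672 genes at 0.05, by which 1.63% of all genes were called higher and 1.37% lower. The median log2 fold change was 0.57 for the free cytosolic genes, 0.11 for the complex-bound genes, -0.05 for the mitochondrial genes and 0.01 over all genes. Of the 20 cytosolic genes, 13 had both 6WP libraries above both WT libraries and 1 had both below, arrangements found in 25.5% and 25.2% of all genes. The mitochondrial genes had 4 of 16 in each direction.

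**Figure D1:**
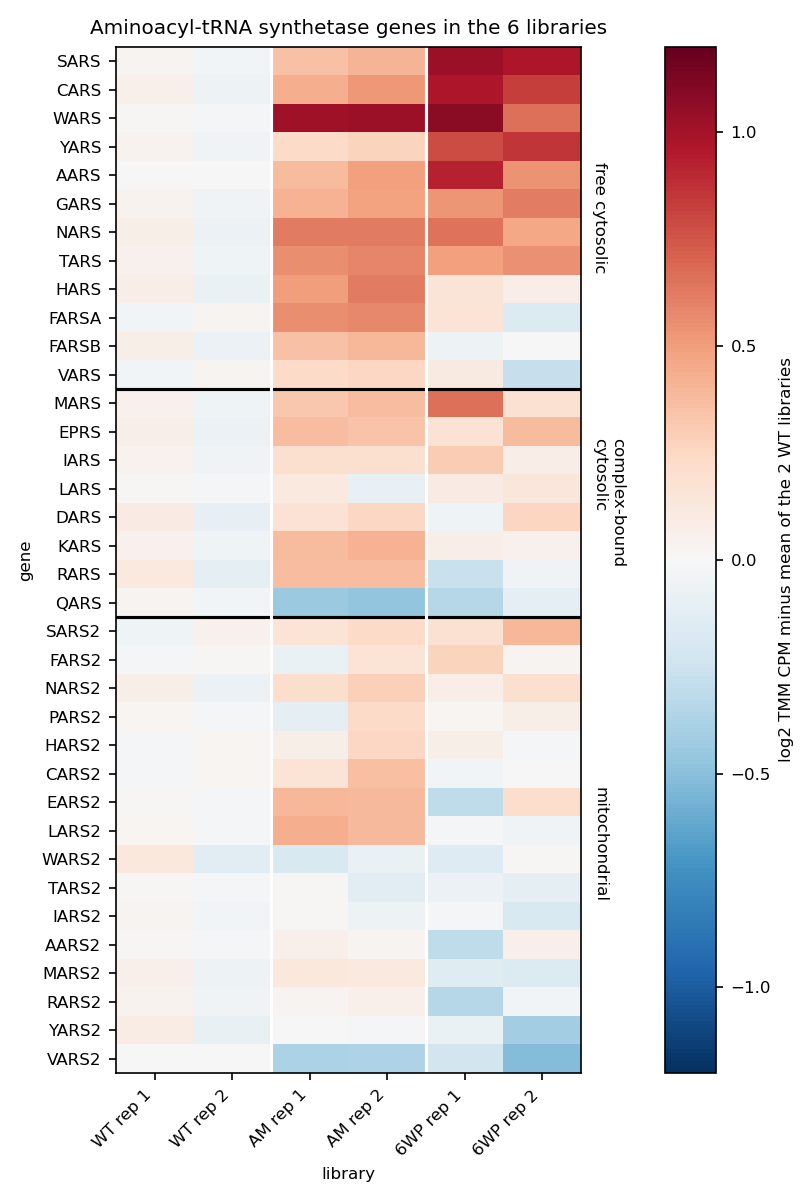
Log2 CPM of each of the 36 synthetase genes (rows) in each of the 6 libraries (columns), as the difference from the mean of the WT libraries, with red higher and blue lower. Genes are ordered within the free cytosolic, complex-bound and mitochondrial blocks by their change in 6WP against WT, and the red cells lie mainly in the free cytosolic block.

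SARS, the seryl-tRNA synthetase, lies on chromosome 1 from 109213918 to 109238182 on the plus strand (hg38) and had the largest increase among the 36 genes. It measured 190 and 181 CPM in WT, 237 and 246 in AM, and 378 and 365 in 6WP. The 3 groups did not overlap, and 6WP was the highest. The log2 fold change in 6WP against WT was 1.00 ± 0.10 (SE, adjusted p = 0.00507 by edgeR's quasi-likelihood test), a 2.00-fold higher level. CARS, the cysteinyl enzyme on the minus strand of chromosome 11 (3000922 to 3057613), was at 69.5 and 64.2 CPM in WT, 90.4 and 96.1 in AM, and 130.5 and 119 in 6WP. Its groups were likewise separate, with a log2 fold change of 0.90 ± 0.11 against WT (adjusted p = 0.00847 by edgeR). YARS, the tyrosyl enzyme on the minus strand of chromosome 1 (32775237 to 32818031), was at 171 and 161 CPM in WT, 194 and 200 in AM, and 286 and 300.2 in 6WP. Its 6WP libraries stood well above all 4 untreated ones, and the log2 fold change against WT was 0.82 ± 0.10 (adjusted p = 0.0085 by edgeR).

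WARS, the tryptophanyl enzyme, which is also known as an interferon-inducible gene, showed a different arrangement. It is on the minus strand of chromosome 14 (100333790 to 100376805), and its CPM was 102 and 99.5 in WT, 204 and 205 in AM, and 214 and 159 in 6WP. Both week 6 groups lay above WT and overlapped each other. The log2 fold change in 6WP against WT was 0.89 ± 0.14 (adjusted p = 0.0239 by edgeR). NARS measured 383 and 346 CPM in WT, 562 and 561 in AM, and 573 and 503 in 6WP, and TARS, the threonyl enzyme, measured 177 and 165 in WT, 252 and 256 in AM, and 241 and 249 in 6WP. Both were above WT in all 4 week 6 libraries. Against WT their log2 fold changes in 6WP were 0.56 ± 0.11 (adjusted p = 0.0449 by edgeR) and 0.52 ± 0.10 (adjusted p = 0.0394). GARS, the glycyl enzyme, was at 254 and 240 CPM in WT, 330 and 344 in AM, and 356 and 378 in 6WP, with 0.57 ± 0.10 in 6WP against WT (adjusted p = 0.0312 by edgeR).

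AARS, which charges alanine, had replicates that lay further apart in 6WP, at 637 and 489 CPM, than in WT (335 and 336) or AM (437 and 472). Both 6WP libraries still exceeded all others, and the log2 fold change against WT was 0.75 ± 0.14 (adjusted p = 0.0362 by edgeR). The same wide gap was seen in 6WP for MARS, the methionyl enzyme of the complex, at 330 and 238 CPM, against 216 and 202 in WT. Its log2 fold change of 0.44 ± 0.16 did not pass (adjusted p = 0.152 by edgeR). The gap between the 6WP replicates was 26.4% of their mean for AARS, 29.1% for WARS and 32.6% for MARS.

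Of the complex-bound genes, MARS and EPRS had an unadjusted p under 0.05, and the mitochondrial list had VARS2 lower at that level. DESeq2's Wald test likewise called 0 complex-bound and 0 mitochondrial genes. The cytosolic genes with the smallest change were FARSA and FARSB, the α and β subunits of the phenylalanyl enzyme. FARSA measured 107 and 113 CPM in WT and 123 and 98.2 in 6WP, and FARSB measured 132 and 120 in WT and 121 and 127 in 6WP, so the groups overlapped for both subunits. Fitting the WT and 6WP libraries alone left 3 of the 8 calls, SARS, CARS and YARS, while calls over all genes fell from 440 to 96. The other calls also depended on each AM library. Without either WT library 0 of the 8 passed, and 0 of all genes did, so each WT library was needed for every call.

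**Figure D2:**
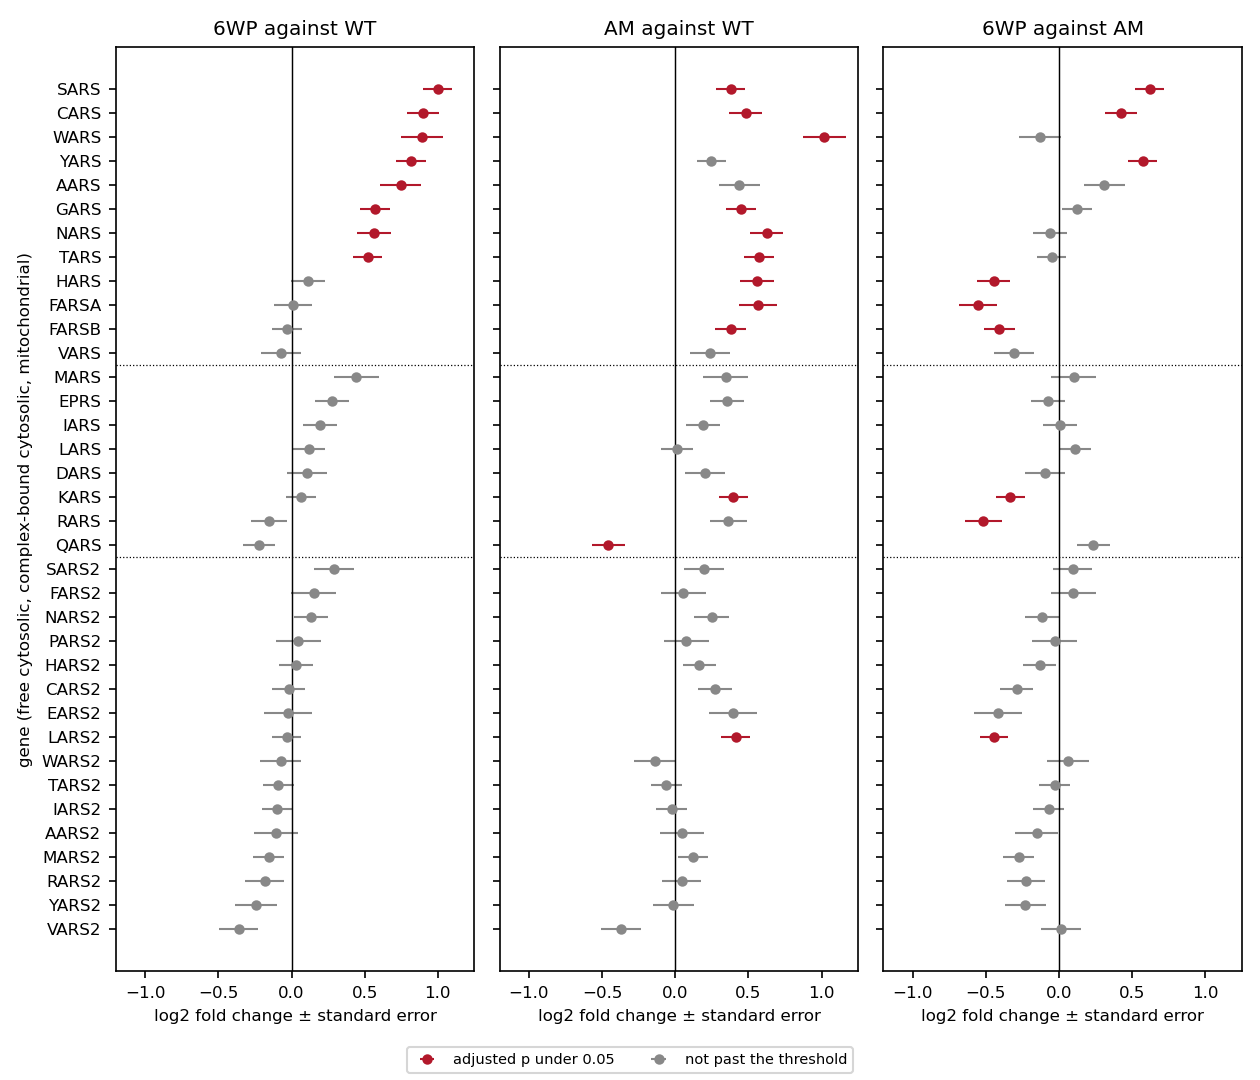
Log2 fold change with its standard error (x axis) for the 36 synthetase genes (y axis, free cytosolic genes at the top, then complex-bound, then mitochondrial) in the 3 comparisons, with red points past an adjusted p of 0.05. In 6WP against WT the red points are the top 8 free cytosolic genes, and in 6WP against AM they fall on both sides of 0.

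AM against WT asks what 6 weeks of culture without phleomycin brought. Synthetase expression was already different in these untreated cells: 10 of 20 cytosolic genes were increased, QARS was decreased, and 1 of 16 mitochondrial genes, LARS2, was increased. Over all genes 7.74% were called higher and 9.93% lower. Of the 12 free cytosolic genes, 9 were increased, and of the 8 complex-bound genes, KARS was increased. The median log2 fold change was 0.46 for the free, 0.27 for the complex-bound and 0.06 for the mitochondrial genes, with all genes at -0.00. Of the 20 cytosolic genes, 18 had both AM libraries above both WT libraries, an arrangement found in 36.9% of all genes, and QARS had both below (36.9% of all genes). Of the 16 mitochondrial genes, 8 had both AM libraries above both WT libraries and 1 had both below.

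WARS had the largest increase, 1.02 ± 0.14 in log2 fold change (adjusted p = 0.00622 by edgeR), followed by NARS with 0.62 ± 0.11 (adjusted p = 0.0123). TARS (0.57 ± 0.10, adjusted p = 0.011), CARS (0.48 ± 0.11, adjusted p = 0.0249), GARS (0.45 ± 0.10, adjusted p = 0.0241) and SARS (0.38 ± 0.10, adjusted p = 0.0367) were increased as well. The rest of the increased genes were HARS, FARSA, FARSB and KARS, whose values are given with the comparison of 6WP and AM. YARS, at 0.25 ± 0.10, did not pass (adjusted p = 0.121 by edgeR), nor did AARS at 0.44 ± 0.14 (adjusted p = 0.0654).

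QARS, the glutaminyl enzyme of the complex, moved in the opposite direction. It measured 270 and 258 CPM in WT, 194 and 191 in AM, and 209 and 244 in 6WP. AM was below WT without overlap, and 6WP lay between them. The log2 fold change in AM against WT was -0.46 ± 0.11 (adjusted p = 0.0303 by edgeR). Fitting WT and AM alone raised the cytosolic count from 10 to 16, and calls over all genes in either direction from 2593 to 6620. The calls depended on each WT and AM library. Leaving out 1 library at a time, the cytosolic median log2 fold change ran from 0.35 to 0.45.

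6WP against AM compares cells of equal time in culture and so holds the contrast that differs by phleomycin. Here 3 cytosolic genes, SARS, CARS and YARS, were higher in 6WP, and 5, FARSA, FARSB, HARS, KARS and RARS, were lower. Of the mitochondrial genes 0 were higher and 1, LARS2, was lower. Over all genes 11.7% were called higher and 9.68% lower. The median log2 fold change was -0.06 for the cytosolic and -0.12 for the mitochondrial genes, against 0.05 for all genes. Both 6WP libraries lay above both AM libraries in 6 cytosolic and 0 mitochondrial genes (33.8% of all genes), and below them in 7 cytosolic and 8 mitochondrial genes (28.5% of all genes). No mitochondrial gene was higher at an unadjusted p under 0.05 or by DESeq2's Wald test, and 4 were lower at an unadjusted p under 0.05. At least the 9.68% of all genes called lower after adjustment reached that level too, and their full share was not counted. The 3 comparisons share libraries, so their counts do not stand independently of one another.

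The 3 higher genes were SARS with a log2 fold change of 0.62 ± 0.10 (adjusted p = 0.00712 by edgeR), YARS with 0.57 ± 0.10 (adjusted p = 0.00937) and CARS with 0.42 ± 0.11 (adjusted p = 0.031). AARS, at 0.31 ± 0.14, did not pass (adjusted p = 0.147 by edgeR).

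The lower genes had their highest level in AM. FARSA was at 162 and 164 CPM in AM against 123 and 98.2 in 6WP, a log2 fold change of -0.55 ± 0.13 (adjusted p = 0.0219 by edgeR), after 0.56 ± 0.13 in AM against WT (adjusted p = 0.0241). FARSB, its partner subunit, was at 161 and 167 CPM in AM against 121 and 127 in 6WP, with -0.41 ± 0.10 (adjusted p = 0.0296 by edgeR) and, in AM against WT, 0.38 ± 0.10 (adjusted p = 0.0427). Both subunits therefore had AM above the other 4 libraries. HARS, the histidyl enzyme, measured 61.7 and 54.9 CPM in WT, 82.3 and 89.6 in AM, and 64.7 and 61.4 in 6WP. It differed by -0.45 ± 0.11 in 6WP against AM (adjusted p = 0.0295 by edgeR) and by 0.56 ± 0.12 in AM against WT (adjusted p = 0.0174).

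KARS, the lysyl enzyme, measured 223 and 209 CPM in WT, 280 and 289 in AM, and 229 and 223 in 6WP. Its log2 fold change was -0.33 ± 0.10 in 6WP against AM (adjusted p = 0.0484 by edgeR) and 0.40 ± 0.10 in AM against WT (adjusted p = 0.0319). RARS, the arginyl enzyme, was at 112 and 95.6 CPM in WT, 133 and 133 in AM, and 86.0 and 100.4 in 6WP. Its 6WP value was lower than AM by a log2 fold change of -0.52 ± 0.13 (adjusted p = 0.025 by edgeR), and AM against WT, at 0.36 ± 0.13, did not pass (adjusted p = 0.0807).

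LARS2, the mitochondrial leucyl enzyme, measured 97.9 and 95.3 CPM in WT, 131 and 127 in AM, and 95 and 94.0 in 6WP, so that AM stood above the other groups. The log2 fold change was -0.44 ± 0.10 in 6WP against AM (adjusted p = 0.0194 by edgeR) and 0.41 ± 0.10 in AM against WT (adjusted p = 0.0281). The cytosolic leucyl gene LARS did not share this arrangement, with 139 and 137 CPM in WT, 149 and 129 in AM, and 148 and 151 in 6WP. Fitting AM and 6WP alone left 2 of the 3 higher calls, SARS and YARS, and 0 of the 5 lower cytosolic calls. Every call depended on each AM library, and those of CARS and the lower genes also on each WT library. In the fit of AM and 6WP alone, calls over all genes fell from 3131 to 1309. Leaving out 1 library at a time, the mitochondrial median log2 fold change ran from -0.17 to -0.10.

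**Figure D3:**
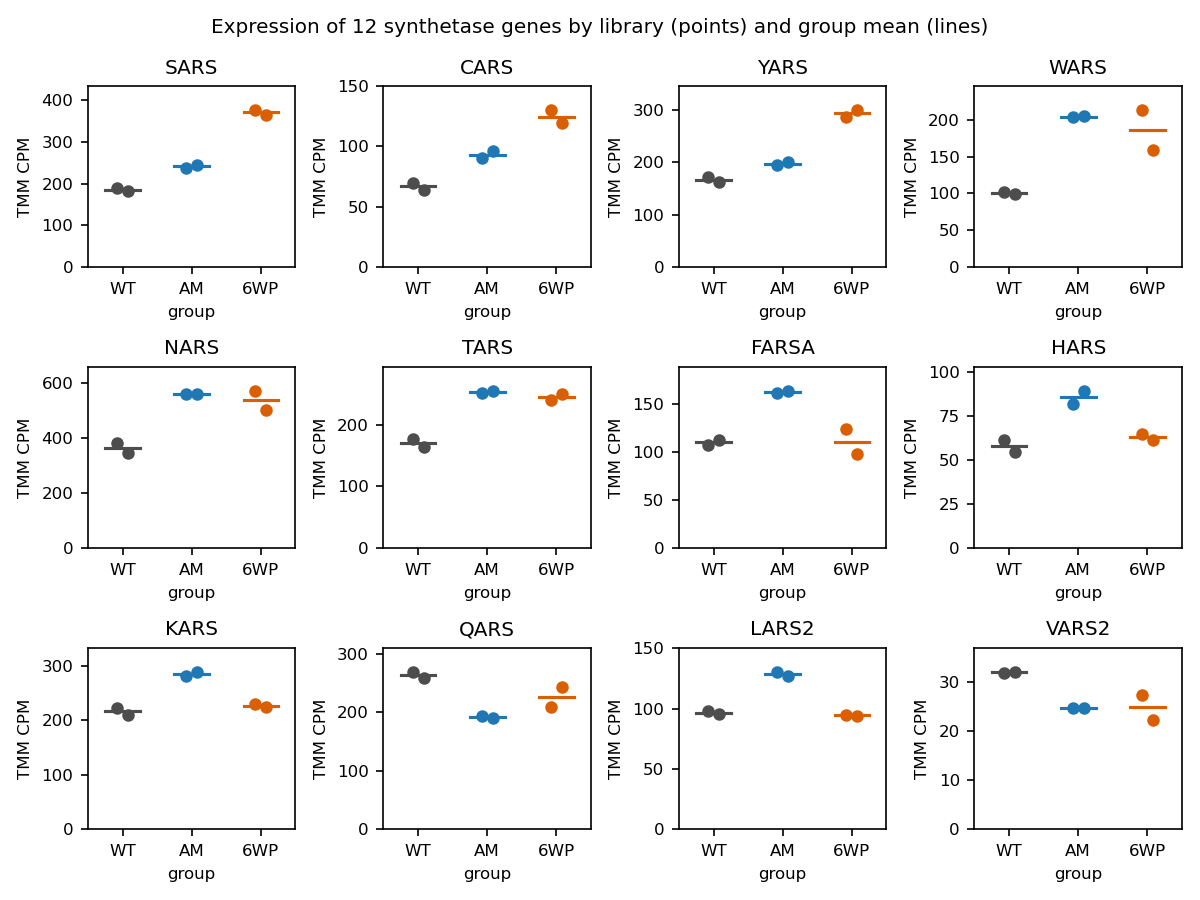
CPM (y axis, from 0, each panel on its own scale) of 12 synthetase genes in the 2 libraries of each group (points) with the group mean (lines). SARS, CARS and YARS are highest in 6WP, WARS, NARS and TARS are raised in both week 6 groups, FARSA, HARS, KARS and LARS2 are highest in AM, and QARS is lowest in AM.

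VARS2, the mitochondrial valyl enzyme, was the mitochondrial gene furthest below WT, although it did not pass. It measured 31.9 and 32.2 CPM in WT, 24.7 and 24.8 in AM, and 27.5 and 22.3 in 6WP. All 4 week 6 libraries were below WT, with log2 fold changes of -0.37 ± 0.14 in AM (adjusted p = 0.0931 by edgeR) and -0.36 ± 0.14 in 6WP (adjusted p = 0.174). At the other end SARS2, the mitochondrial seryl enzyme, measured 18.3 and 19.8 CPM in WT, 21.4 and 22.4 in AM, and 21.6 and 25.1 in 6WP, and its log2 fold change of 0.29 ± 0.14 in 6WP against WT did not pass (adjusted p = 0.255). EARS2, the mitochondrial glutamyl enzyme, had the widest gap between 6WP replicates, at 47.5 and 68.2 CPM, or 35.9% of their mean. The most abundant mitochondrial gene, IARS2, lay between 372 and 432 CPM in all 6 libraries, and its groups overlapped in all 3 comparisons. An exon overlap limits 2 of these values: 63.0% of the exon bases of VARS2 and 48.2% of those of SARS2 are shared with another annotated gene on the same strand.

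Within each library, the median difference from the WT mean was 0.37 and 0.40 (log2) for cytosolic genes in AM, 0.24 and 0.22 in 6WP, and for mitochondrial genes 0.04 and 0.14 in AM and -0.05 and -0.01 in 6WP. The cytosolic median exceeded the mitochondrial one by 0.32 and 0.26 in AM and by 0.29 and 0.23 in 6WP, whereas the WT libraries stood at 0.03 and -0.03. With 2 libraries a group, an exact permutation test cannot give a p below 0.333, and this difference was not tested. Summed over the 20 genes, cytosolic synthetase transcripts took 4267 and 4020 CPM in WT, 5292 and 5368 in AM, and 5590 and 5289 in 6WP, while the 16 mitochondrial genes together took 1104 and 1061 in WT, 1151 and 1142 in AM, and 1040 and 1018 in 6WP. The ratio of the sums was 3.86 and 3.79 in WT, 4.60 and 4.70 in AM, and 5.38 and 5.19 in 6WP, without overlap between groups.

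**Figure D4:**
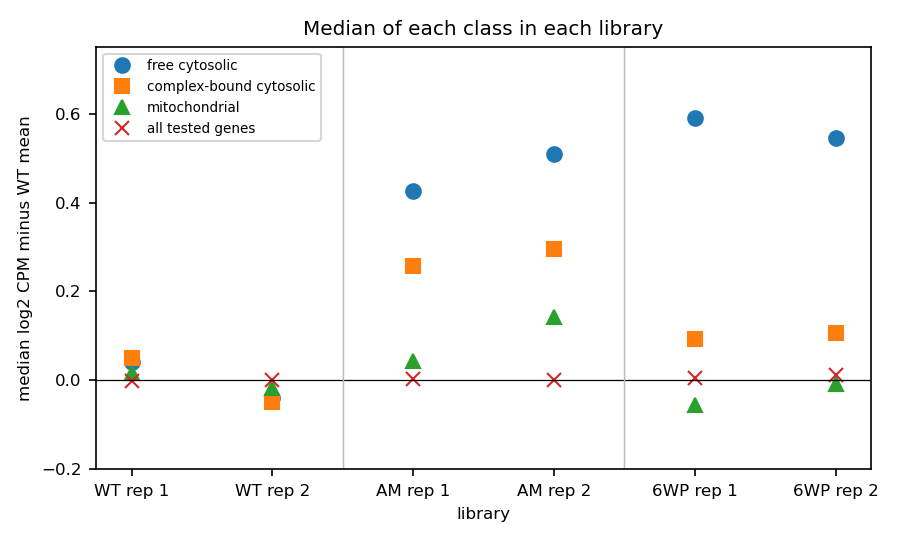
Median difference in log2 CPM from the WT mean (y axis) in each of the 6 libraries (x axis) for the free cytosolic, complex-bound cytosolic and mitochondrial genes and for all tested genes. Free cytosolic genes lie between 0.43 and 0.59 in AM and 6WP, complex-bound genes are nearer 0 in 6WP than in AM, and all genes lie at about 0.

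The compartments were also compared within the pairs that charge the same amino acid. The cytosolic member had the larger log2 fold change in 15 of 17 pairs in 6WP against WT (median difference 0.30), in 15 in AM against WT (median difference 0.32), and in 9 in 6WP against AM (median difference 0.05). EPRS and FARS2 each sit in 2 pairs, and all pairs come from the same libraries, so the pairs are not independent. The seryl, cysteinyl and tyrosyl pairs illustrate it: SARS, CARS and YARS were increased in 6WP against WT, while SARS2, CARS2 (48.0 and 49.3 CPM in WT, 47.5 and 48.5 in 6WP) and YARS2 (43.8 and 38.9 in WT, 39.0 and 30.9 in 6WP) did not pass. By structural class, 3 of 9 class I and 5 of 10 class II cytosolic genes were increased in 6WP against WT (1.63% of all genes). EPRS, which charges both glutamate and proline, was counted in neither class and was not called in any comparison in the main fit. Some alternative fits called it, mostly in AM against WT. In AM against WT, 2 of 9 class I and 8 of 10 class II genes were increased (7.74% of all genes), and 1 class I gene, QARS, was decreased (9.93% of all genes).

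Of the 7 cytosolic genes whose promoter window held the TGATGNAA core, 5 were increased in 6WP against WT (1.63% of all genes), namely AARS, CARS, GARS, NARS and TARS. IARS and MARS held it and did not pass. Of the 9 cytosolic genes with a window and no core, 2 were increased, SARS and WARS, and YARS, the other increased gene, had no window. In AM against WT, 4 of 7 with the core and 6 of 9 without it were increased (7.74% of all genes), and 1 without it, QARS, was decreased (9.93% of all genes). In 6WP against AM, 1 gene with the core, CARS, was higher and none was lower, and among those without it 1, SARS, was higher and 5 were lower (11.7% of all genes higher, 9.68% lower). These are counts of genes and no test was made of them.

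The proteins that work with the synthetases were described from lists of their own. The complex scaffolds AIMP1, AIMP2 and EEF1E1 gave 0 calls of 3 in every comparison by edgeR and by DESeq2, with 1 of them at an unadjusted p under 0.05, in AM against WT. The partners of mitochondrial charging (QRSL1, GATB, listed as PET112, and GATC of the glutamyl-tRNA amidotransferase, and the formyltransferase MTFMT) also gave 0 of 4 by edgeR, with 0 to 1 in each direction at an unadjusted p under 0.05, while DESeq2 called 1 of them lower in 6WP against AM. The proofreading and recycling enzymes gave 0 of 4 tested by edgeR and by DESeq2, with 0 at an unadjusted p under 0.05. AARSD1, the 1 gene of that list left untested, had 0 counts in all libraries. Of 3 other synthetase-like genes, SEPSECS, which completes selenocysteinyl-tRNA, was higher in 6WP than in AM by a log2 fold change of 0.70 (adjusted p = 0.0086 by edgeR). Over all genes 11.7% were called higher there.

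Among the 8 genes for tRNA end processing, threonylcarbamoyl modification and export, XPOT and ELAC1 were increased in 6WP against WT (1.63% of all genes). In AM against WT 3 were increased (7.74% of all genes), XPOT, LAGE3 and TPRKB, the last with a log2 fold change of 0.53 (adjusted p = 0.0317 by edgeR). All 8 had both AM libraries above both WT libraries (36.9% of all genes). In 6WP against AM 1 was higher and 2 were lower (11.7% and 9.68% of all genes). Both 6WP libraries lay below both AM libraries in 6 of the 8 (28.5% of all genes) and above them in 2 (33.8% of all genes). XPOT, the exportin that carries tRNA out of the nucleus, measured 368 and 359 CPM in WT, 488 and 488 in AM, and 610 and 505 in 6WP. Its log2 fold change was 0.62 in 6WP against WT (adjusted p = 0.0404 by edgeR) and 0.43 in AM against WT (adjusted p = 0.0448). ELAC1, a tRNase Z, measured 9.51 and 9.05 CPM in WT, 12.4 and 12.6 in AM, and 18.7 and 17.0 in 6WP, with 0.94 against WT (adjusted p = 0.0192 by edgeR) and 0.51 against AM (adjusted p = 0.0366). The other tRNase Z gene, ELAC2, was lower in 6WP than in AM by a log2 fold change of -0.46 (adjusted p = 0.0231 by edgeR). LAGE3, a subunit of the KEOPS modification complex, was higher in AM than in WT at 0.82 (adjusted p = 0.0138 by edgeR) and lower in 6WP than in AM at -0.69 (adjusted p = 0.0205).

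The next list held the elongation factors that bring charged tRNA to the cytosolic ribosome, with VARS, a synthetase that binds them. Of these 6 genes, 0 were called in 6WP against WT by edgeR and by DESeq2, with 1 at an unadjusted p under 0.05. In 6WP against AM 3 were higher by edgeR (11.7% of all genes). In AM against WT 1, EEF1G, was lower (9.93% of all genes), with a log2 fold change of -0.62 (adjusted p = 0.0459 by edgeR). EEF1A1, at -0.64 (adjusted p = 0.0502 by edgeR), and EEF1D, at -0.50 (adjusted p = 0.0643), did not pass there. DESeq2 called 3 of the 6 lower in that comparison, with 3051 calls over all genes in either direction. At an unadjusted p under 0.05 by edgeR, 3 were lower and 1 was higher. EEF1A1, which binds the charged tRNA, measured 9324 and 8838 CPM in WT, 5417 and 6211 in AM, and 8347 and 12063 in 6WP. It was lowest in AM and spread widely in 6WP, with a log2 fold change of 0.81 in 6WP against AM (adjusted p = 0.022 by edgeR). EEF1D and EEF1G, subunits of its exchange factor, were higher as well (0.78, adjusted p = 0.0146, and 0.70, adjusted p = 0.0278, by edgeR). EEF1A2, the second form of EEF1A, measured 163 and 194 CPM in WT, 238 and 249 in AM, and 217 and 322 in 6WP. All 4 week 6 libraries of EEF1A2 lay above WT, and it did not pass in any comparison. For the mitochondrion, the list held 6 translation factor genes, TUFM, TSFM, GFM1, GFM2, MTIF2 and MTIF3. Of them 1 passed, GFM1, with a log2 fold change of 0.56 in AM against WT (adjusted p = 0.0232 by edgeR). Over all genes 7.74% were called higher in that comparison.

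The last list held EIF2AK4, which encodes the kinase GCN2, with GCN1L1 and the gene for the transcription factor ATF4. EIF2AK4 was not called in any comparison, at 122 and 119 CPM in WT, 102 and 88.5 in AM, and 83.2 and 110 in 6WP. GCN1L1, the gene for the GCN2 activator GCN1, was at 253 and 262 CPM in WT, 249 and 248 in AM, and 190 and 192 in 6WP. Both 6WP libraries lay below the other 4. The log2 fold change was -0.38 in 6WP against AM (adjusted p = 0.029 by edgeR), while -0.44 in 6WP against WT did not pass by edgeR (adjusted p = 0.0560), and DESeq2 called 1 gene of this list lower there. ATF4 measured 425 and 422 CPM in WT, 497 and 579 in AM, and 739 and 731 in 6WP. Its groups did not overlap and rose from WT through AM to 6WP, as did those of SARS, CARS, YARS, GARS, AARS, XPOT and ELAC1. The log2 fold change of ATF4 was 0.80 in 6WP against WT (adjusted p = 0.0155 by edgeR) and 0.45 in 6WP against AM (adjusted p = 0.0273). In AM against WT it was 0.34 and did not pass (adjusted p = 0.0703 by edgeR), while DESeq2 called 1 gene of this list higher there. Over all genes 1.63% were called higher by edgeR in 6WP against WT, 11.7% in 6WP against AM and 7.74% in AM against WT. In 6WP against AM 9.68% were called lower.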

How the data were processed

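RNA-seq counts per gene for 6 libraries (2 each of WT, AM and 6WP) were deposited by the authors as raw counts. The submitters' processing notes name STAR 2.5.3a, StringTie 1.3.3, featureCounts 1.5.3 (Subread), edgeR 3.22.3 and R 3.5.0, with genome build hg38. The libraries were stranded, and the strand setting used in counting is not given in the sources used here, so reads of overlapping genes on opposite strands (MARS with DDIT3, HARS with HARS2, WARS with WDR25) may not be separated. The counts were analysed as deposited with edgeR 4.0.16 in R 4.3.3. Genes passing filterByExpr were kept, TMM scaling was used, and 1 quasi-likelihood model over the 3 groups gave each comparison, two-sided, with Benjamini-Hochberg adjustment over all 14672 tested genes at 0.05. Standard errors (SE) were derived from each log2 fold change and its F statistic (absolute change over the root of F). A count of 0 allows up to 3 counts, or 0.0850 to 0.141 CPM by library, which covers counting error only. Gene positions and lengths came from GENCODE v44 and promoter windows from RefSeq. The code was tested on simulated counts.

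The members and lists were chosen with earlier results of these data known, so no adjustment within a list and no set test was made. The share of all genes at an unadjusted p under 0.05 was not counted, so counts at that level have no background. A few genes of the marker and partner lists are not reported here. Values in each library were given for the called synthetases and those with the smallest change in 6WP against WT, and any member or listed gene could be named; for other members, values by library were added after they were seen. Alternatives were DESeq2 1.42.0 (Wald test, and its size factors), library totals only, no filter beyond 1 count, fits of the 2 groups compared, a replicate block, and leaving out each library.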

Additional observations from a re-analysis of the deposited data

How the results depend on the processing

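With 2 libraries a group, most calls depended on how the spread was estimated. When only the 2 groups compared entered the fit, 6WP against WT gave 3 cytosolic genes higher (3 of them free). Calls over all genes in either direction then fell from 440 to 96. 6WP against AM then gave 0 lower calls in the cytosolic, mitochondrial, complex-bound and free lists, and calls over all genes fell from 3131 to 1309. AM against WT gave 16 cytosolic, 4 mitochondrial and 4 complex-bound genes higher and 1 mitochondrial gene lower. Calls over all genes rose from 2593 to 6620 in that fit. Scaling by library totals only gave 3054 calls over all genes in 6WP against AM and 2393 in AM against WT. It gave 1 complex-bound gene lower in 6WP against AM. In AM against WT it gave 0 mitochondrial and 0 complex-bound genes higher, with medians of 0.32 (cytosolic), 0.0022 (mitochondrial), 0.21 (complex-bound) and 0.40 (free), while the median of all genes was -0.06. With no filter beyond 1 count, 1 complex-bound gene was lower in 6WP against AM, with 3483 calls over all genes. DESeq2's Wald test gave 2 complex-bound genes higher in AM against WT, with 3051 calls over all genes. Single calls near the threshold were lost with library totals only (NARS in 6WP against WT, KARS in 6WP against AM, and FARSB, KARS, SARS and LARS2 in AM against WT) and with no filter (KARS in 6WP against AM, FARSB in AM against WT). No alternative reversed a call.

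Replicate numbers are shared between groups, but same-numbered libraries deviated together only weakly (correlations of 0.0873 for WT and 6WP, 0.0395 for WT and AM, and -0.0206 for AM and 6WP). With the replicate block, 6 cytosolic genes were higher in 6WP against WT, 4 were lower in 6WP against AM, including 1 complex-bound gene, and 8 were higher in AM against WT. Calls over all genes in either direction were then 393, 3069 and 2485, against 440, 3131 and 2593 in the main fit. The calls lost were NARS and TARS, KARS, and FARSB and SARS, in that order of comparisons.

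Leaving out 1 library at a time gave wide ranges of calls. For 6WP against WT, 0 to 10 cytosolic and 0 to 8 free genes were higher, 0 to 1 cytosolic and 0 to 1 free genes lower, and 0 to 2 complex-bound genes higher and 0 to 1 lower, with 0 to 1 mitochondrial genes higher and 0 to 2 lower. The medians ran from 0.18 to 0.29 (cytosolic), 0.061 to 0.17 (complex-bound), 0.51 to 0.62 (free) and -0.081 to -0.024 (mitochondrial). For 6WP against AM, 0 to 5 cytosolic, 0 to 4 free and 0 to 1 complex-bound genes were higher and 0 to 7, 0 to 5 and 0 to 2 lower, with 0 to 6 mitochondrial genes lower. The medians ran from -0.079 to 0.016 (cytosolic), -0.095 to 0.016 (free), -0.079 to -0.025 (complex-bound) and -0.17 to -0.10 (mitochondrial). For AM against WT, 0 to 16 cytosolic, 0 to 12 free, 0 to 4 complex-bound and 0 to 4 mitochondrial genes were higher, and 0 to 1 cytosolic, complex-bound and mitochondrial genes lower. The medians ran from 0.35 to 0.45 (cytosolic), 0.41 to 0.51 (free), 0.22 to 0.36 (complex-bound) and 0.029 to 0.13 (mitochondrial). For the cytosolic list the most calls came without a 6WP library. The fewest came without a WT library (6WP against WT), an AM library (6WP against AM) or either (AM against WT). A lone library was then assumed to vary like the other groups. Calls over all genes shifted widely in the same fits, so these shifts are not particular to the synthetases. The cause of these shifts was not tested.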
